A study of Mus musculus with 24 samples.

Results

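Interferon-stimulated genes were followed in striatal RNA from R6/1 mice, a transgenic model of Huntington's disease that carries the first exon of human HTT with an expanded CAG repeat, and of wild type mice. The set holds 9 named genes of the 24340 that all 6 deposited comparison tables share, and each was found by its symbol: Stat2, Irf9, Irf7, Isg15, Usp18, Ifit1, Ifit2, Ifit3 and Bst2. Usp18 was chosen by its measured FPKM, as it is among the genes highest in R6/1 mice over wild type mice under RGFP109. That contrast, and each other one that holds R6/1-RGFP109 or WT-RGFP109, therefore only describes Usp18. RNA from 24 mice was sequenced, with 5 wild type and 6 R6/1 mice given vehicle (WT-vehicle, R6/1-vehicle) and 6 wild type and 7 R6/1 mice given RGFP109 (WT-RGFP109, R6/1-RGFP109). RGFP109, an inhibitor of the histone deacetylases HDAC1 and HDAC3, was injected intraperitoneally at 30 mg/kg on 5 occasions per week over 3 weeks, spanning 23 days, while vehicle mice received the solvent, dimethyl sulfoxide diluted in saline. All mice were 11 to 14 weeks old when dosing began and 14 to 17 weeks old at its end, and tissue was taken 18 h after the last injection.

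Levels are FPKM, fragment numbers scaled by transcript length and by the mapped fragments of the library, and the tables give 1 value per group that the authors' software made from all libraries of that group. No spread between mice can be given from such values, no test was run, and whether a single mouse carries a difference cannot be told from them. Differences are those of log2(FPKM + 0.05) within a table, which understate the change of genes near the added value. A difference above 0.5 in either direction among genes with a mean of at least 0.5 FPKM is called past the fold, and the share of all genes past it is given as the background. Depth is unknown, because the tables hold no counts.

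Type I interferons bind a receptor made of IFNAR1 and IFNAR2, whose Janus kinases phosphorylate STAT proteins. STAT2 and IRF9 are parts of the factor ISGF3, which binds the interferon-stimulated response element (ISRE) in the promoters of its target genes, many of them antiviral. In the brain, neurons, astrocytes, endothelial cells and above all microglia can respond in this way. In bulk tissue, fewer cells of a type and less RNA per cell cannot be told apart.

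Promoter windows from RefSeq on GRCm38.p6, running from 250 bases before to 50 bases after an annotated start site, were found for 8 of the 9 genes, not for Usp18. An ISRE core, searched as GAAANNGAAA on either strand, was found in the windows of 5 of these 8 genes, whereas 3.99% of all 27025 genes with a window hold one. Isg15, Ifit1, Ifit3 and Bst2 each hold at least 2 cores, as do 0.266% of all genes with a window. Because these 4 genes carry the repeated element, the same stretch of each is printed below from 160 to 51 bases before its start, on the strand of the gene and 5′ to 3′, with the bases of the cores in capitals.
Isg15 (chr4:156200869-156200978, minus strand): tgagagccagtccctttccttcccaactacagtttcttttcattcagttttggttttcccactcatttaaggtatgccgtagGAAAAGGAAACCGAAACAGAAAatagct
Ifit1 (chr19:34640729-34640838, plus strand): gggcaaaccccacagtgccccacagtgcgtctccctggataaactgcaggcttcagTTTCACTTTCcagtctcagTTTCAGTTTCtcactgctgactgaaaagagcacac
Ifit3 (chr19:34583369-34583478, plus strand): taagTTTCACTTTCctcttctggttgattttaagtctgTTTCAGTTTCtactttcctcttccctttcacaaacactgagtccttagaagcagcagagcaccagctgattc
Bst2 (chr8:71537523-71537632, minus strand): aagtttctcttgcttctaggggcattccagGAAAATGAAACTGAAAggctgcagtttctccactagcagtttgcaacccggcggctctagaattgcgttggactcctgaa
Stat2, from 240 to 191 bases before its start (chr10:128270258-128270307, plus strand): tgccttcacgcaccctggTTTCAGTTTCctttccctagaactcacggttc

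Isg15 holds 3 overlapping cores, the first of which begins 78 bases before the start. In Ifit1 the cores begin 104 and 85 bases before the start, and in Ifit3 they begin at 156 and 122 bases. These 4 cores of Ifit1 and Ifit3 lie on the other strand, and the first core of each reads TTTCACTTTC and the second TTTCAGTTTC. The single core of Stat2, 222 bases before its start, has the letters of those second cores. Bst2 has 2 overlapping cores, and a gamma-activated sequence (GAS, searched as TTCNNNGAA, which reads the same on both strands) overlaps the first of them. The GAS motif was also found 241 bases before the first start site of Ifit2 and is in the windows of 9.55% of all genes. The windows of Irf7, Irf9 and Ifit2 held no ISRE core, which says only that these letters are not within the windows. Of the 146 other interferon pathway genes on the lists described further on, 119 had a window and 46 of those (38.7%) held an ISRE core. The map of matches shows their distances from the start sites.

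**Figure D1:**
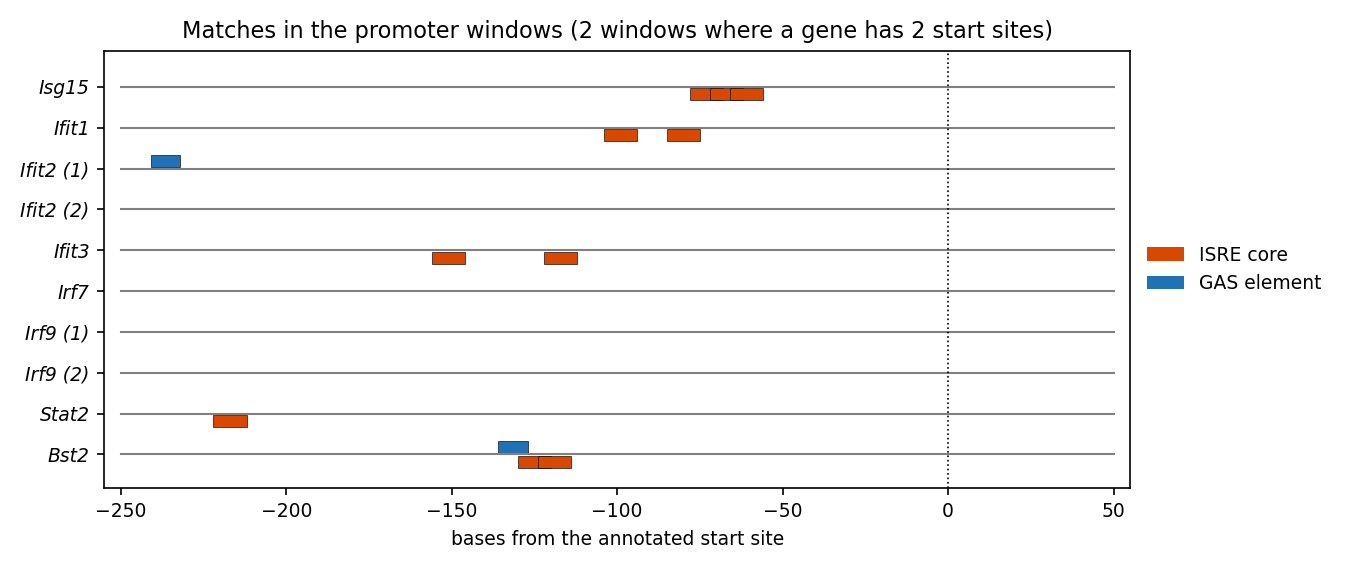
Positions of ISRE cores (orange) and GAS elements (blue) in the RefSeq promoter windows of 8 interferon-stimulated genes, in bases from the annotated start site at 0. The 10 windows include a pair for Ifit2 and for Irf9, and cores are seen in Isg15, Ifit1, Ifit3, Stat2 and Bst2.

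The 9 genes differed widely in level. FPKM is scaled for length, and the mean over the 4 groups ran from 0.988 FPKM for Usp18 to 8.06 FPKM for Stat2. Stat2 was followed by Bst2 (6.49 FPKM), Irf9 (5.63 FPKM), Ifit3 (3.33 FPKM), Isg15 (2.61 FPKM), Ifit2 (2.60 FPKM), Irf7 (1.27 FPKM) and Ifit1 (1.18 FPKM). The means of Isg15 and Ifit2, and those of Irf7 and Ifit1, lie closer than the highest and lowest group of either gene. R6/1-RGFP109 was the highest group for 7 genes and WT-vehicle the lowest for the same number, the exceptions being Stat2 and Bst2. Usp18 is among these 7, and its R6/1-RGFP109 level helped choose it. Its wild type levels were alike, at 0.464 FPKM in both groups when compared directly. How often all genes show this order was not computed, so nothing is read from these counts. The genes with the lowest levels had the widest range, with 3.74 times between the highest and lowest group for Usp18, 3.24 times for Ifit1 and 3.00 times for Irf7, against 1.19 times for Stat2.

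**Figure D2:**
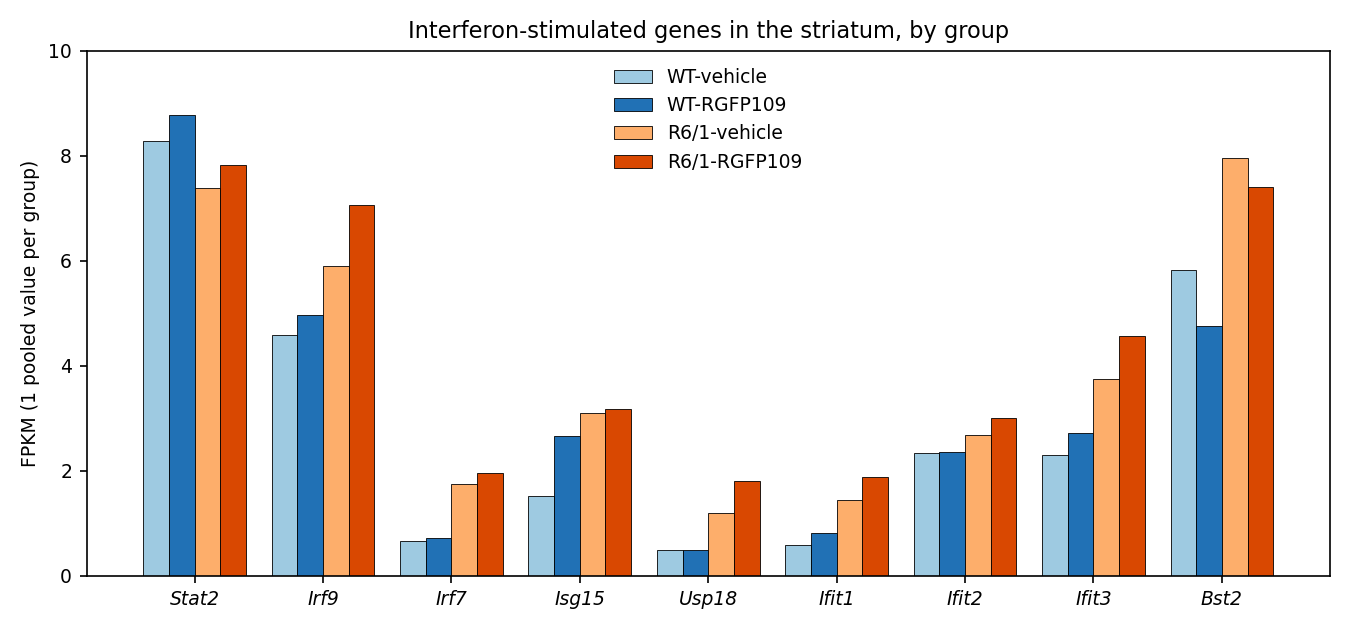
Group values in FPKM (bars, from 0) of the 9 interferon-stimulated genes in striatum, with 1 pooled value per group and no error bar because the values are pooled. Stat2 has the highest mean level and the smallest ratio of the highest to the lowest group. For every gene but Stat2 both R6/1 bars stand above both wild type bars. How often all genes show this was not computed, so nothing is read from it.

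In vehicle-treated mice the question was how the interferon-stimulated genes differ between R6/1 and wild type striatum. Past the fold, 5 of the 9 genes were higher in R6/1-vehicle and 0 were lower. Among all 14770 genes past the minimum, 4.49% were higher past the fold, and 11.0% were lower. The share higher was 6.62% in genes of 0.5 to 10 FPKM, the range in which all 9 genes lie. The median difference of the 9 genes was 0.69 on the log2 scale, against -0.01 for all genes.

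The transcription factors divided. Irf7, on chromosome 7 from 141263183 to 141266424 of mm10, encodes the factor that amplifies interferon production. It had 0.652 FPKM in WT-vehicle and 1.74 FPKM in R6/1-vehicle, a log2 difference of 1.35, the largest of the 9 genes here. Irf9, the DNA-binding partner of ISGF3 (chromosome 14, 55603985 to 55610030), had 4.58 and 5.90 FPKM in the same groups, a log2 difference of 0.36. Stat2 (chromosome 10, 128270576 to 128292849), which brings the activation domain to ISGF3, was the only one of the 9 genes with a lower value in R6/1-vehicle, 7.38 FPKM against 8.27 FPKM, a log2 difference of -0.16. Of these 3 factors, Irf7 alone lay past the fold.

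Both genes of the ISG15 pathway were past it. Isg15 (chromosome 4, 156199424 to 156200818) encodes a ubiquitin-like protein that is attached to other proteins. It stood at 1.52 FPKM in WT-vehicle and 3.09 FPKM in R6/1-vehicle, a ratio of 2.04. Usp18 (chromosome 6, 121245906 to 121270917) encodes the protease that removes ISG15 and also damps signaling at IFNAR2. Its value was 0.480 FPKM in WT-vehicle and 1.19 FPKM in R6/1-vehicle, a ratio of 2.48 and a log2 difference of 1.23. The Usp18 level in WT-vehicle is under the minimum, and the gene was counted through the mean of both groups.

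The IFIT genes encode cytoplasmic proteins that bind RNA and act against viruses, and they lie side by side on chromosome 19 with 3 close relatives, 6 genes within 99.3 kb. Ifit1 (34640889 to 34650009) had 0.581 FPKM in WT-vehicle and 1.45 FPKM in R6/1-vehicle, a log2 difference of 1.25. Ifit3 (34583529 to 34588982) had 2.31 and 3.75 FPKM, a log2 difference of 0.69. At the near end of the cluster, Ifit2 (34550694 to 34576534) differed little, with 2.35 and 2.68 FPKM and a log2 difference of 0.19. Ifit3b, the near copy of Ifit3 that lies between Ifit3 and Ifit1, had 1.20 and 1.88 FPKM and a log2 difference of 0.63, while Ifit1bl1 gave 0.37. Short single reads can be split between such copies, so the shares of Ifit3 and Ifit3b and of Ifit1 and its relatives are uncertain. None of the 9 genes overlaps another gene of the tables. Bst2 (chromosome 8, 71534262 to 71537437), which encodes tetherin, a membrane protein that holds budding virus at the cell surface, had 5.83 and 7.96 FPKM, a log2 difference of 0.45.

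**Figure D3:**
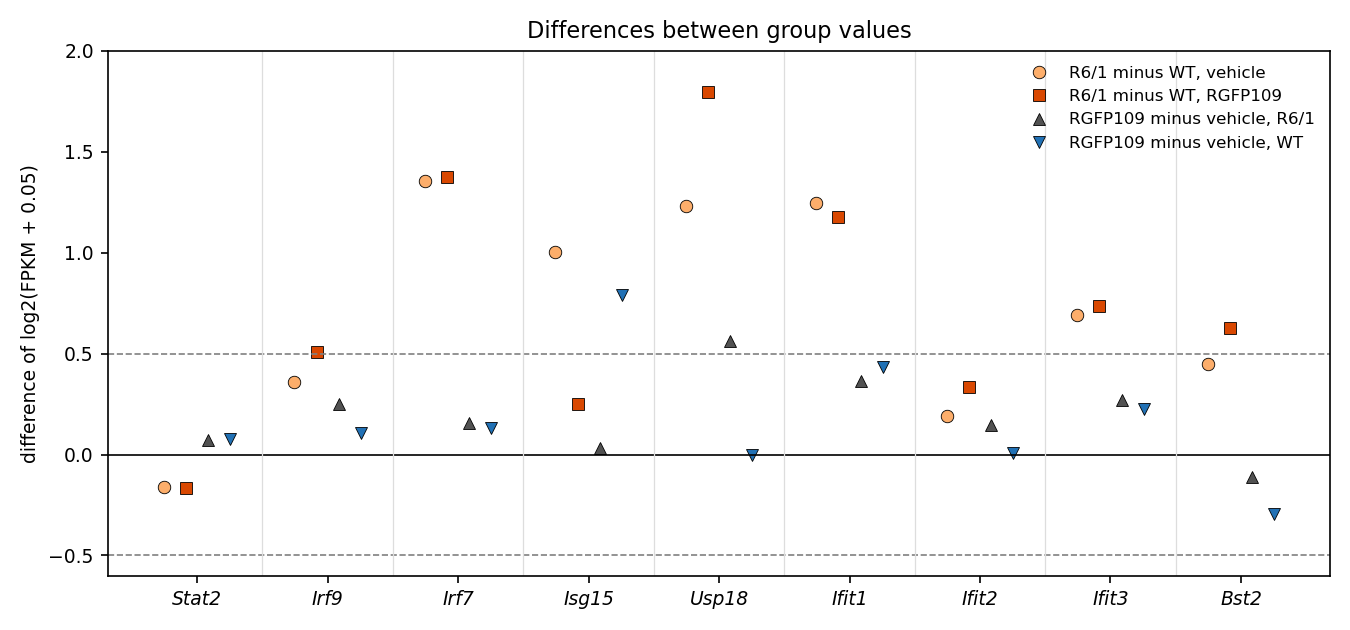
Differences of log2(FPKM + 0.05) for the 9 interferon-stimulated genes between R6/1 and wild type mice (circles for vehicle, squares for RGFP109) and between RGFP109 and vehicle (triangles), with dashed lines at 0.5 and -0.5. The genotype differences of Irf7, Usp18 and Ifit1 lie above 1 with either treatment, those of Stat2 lie below 0, and Isg15 differs by 1.00 with vehicle and by 0.25 with RGFP109.

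Under RGFP109, 6 of the 9 genes were higher past the fold in R6/1 than in wild type mice and 0 were lower, where 4.06% of all 14763 genes were higher and 9.58% lower, and 6.43% of those of 0.5 to 10 FPKM were higher. This contrast chose Usp18, so the count is a description. Usp18 had 0.482 FPKM in WT-RGFP109 and 1.80 FPKM in R6/1-RGFP109, a ratio of 3.72, and held rank 121 from the top of all genes. Irf7 (0.723 and 1.95 FPKM) and Ifit1 (0.805 and 1.88 FPKM) were again more than 1 apart on the log2 scale, at 1.37 and 1.18. Ifit3 stood at 2.72 and 4.56 FPKM, a log2 difference of 0.73.

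Bst2 and Irf9, which were under the fold with vehicle, were past it here. Bst2 had 4.76 FPKM in WT-RGFP109 and 7.40 FPKM in R6/1-RGFP109, a log2 difference of 0.63. For Irf9 the values were 4.96 and 7.07 FPKM, and its log2 difference of 0.51 is just past the fold. Isg15, which was past the fold with vehicle, was higher in R6/1 mice but under the fold here, with 2.66 and 3.18 FPKM and a log2 difference of 0.25. Ifit2 (2.36 and 3.00 FPKM) gave 0.34, and Stat2 (8.77 and 7.82 FPKM) gave -0.16, as with vehicle. The genotype comparisons share no group, and Irf7, Usp18, Ifit1 and Ifit3 were past the fold in both. For Usp18 this is a description, because the RGFP109 comparison chose it and its WT-RGFP109 value is under the minimum. Among all genes, 287 were higher past the fold in both. They make up 43.3% of those higher with vehicle and 47.9% of those higher with RGFP109.

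The effect of RGFP109 within a genotype was smaller. In R6/1 mice 1 of the 9 genes, Usp18, was higher past the fold after RGFP109 and 0 were lower, beside 1.70% of all 14728 genes higher and 1.71% lower, and 2.13% higher at 0.5 to 10 FPKM. The R6/1-RGFP109 level that helped choose Usp18 is one side of this comparison, so nothing is read from the count. Usp18 had 1.24 FPKM in R6/1-vehicle and 1.85 FPKM in R6/1-RGFP109 in the table of that pair, a log2 difference of 0.56. With a pseudocount of 0.5 FPKM its difference was 0.44, under the fold. The next largest differences were 0.36 for Ifit1, 0.27 for Ifit3 and 0.25 for Irf9. Irf7 and Ifit2 each gave 0.15, and Stat2 and Isg15 were within 0.1 of 0. Bst2 was the only gene of the set with a lower value, at -0.11. The median of the 9 genes was 0.15, against 0.00 for all genes.

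In wild type mice Usp18, whose WT-RGFP109 level also entered its choice, was under the minimum with 0.464 FPKM in both groups. The other 8 of the 9 genes were counted. Past the fold, 1 of these 8, Isg15, was higher after RGFP109 and 0 were lower. Among all 14757 genes 1.99% were higher and 2.69% lower, and 2.59% were higher at 0.5 to 10 FPKM. The Isg15 value was 1.46 FPKM in WT-vehicle and 2.56 FPKM in WT-RGFP109, a ratio of 1.75 and a log2 difference of 0.79. Ifit1 gave 0.43 and Ifit3 0.23, while Bst2 gave -0.29, with 5.63 and 4.59 FPKM. The other 4 genes lay between 0.01 and 0.13.

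Taking the treatment difference in R6/1 mice minus that in wild type mice, the values farthest from 0 were those of Isg15 and Usp18. For Isg15 the value was -0.76, and 2.71% of 14443 genes had a larger one in either direction. For Usp18 it was 0.56, which is a description, because its R6/1-RGFP109 and WT-RGFP109 levels enter both this value and the choice of the gene. The remaining 7 genes lay between -0.07 (Ifit1) and 0.18 (Bst2). For Isg15 the larger treatment difference was the one in wild type mice (0.79, against 0.03 in R6/1 mice), and for Usp18 it was the one in R6/1 mice. Neither difference of differences was tested.

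R6/1-RGFP109 was also set against WT-vehicle, the vehicle-treated wild type reference, to describe what remained after treatment. Past the fold, 6 of the 9 genes were higher in R6/1-RGFP109 and 0 were lower, beside 4.32% of all 14768 genes higher and 11.1% lower, and 6.74% higher at 0.5 to 10 FPKM. Usp18 is among the 6 and is again only described. The log2 differences were 1.79 for Usp18, 1.61 for Ifit1, 1.51 for Irf7, 1.04 for Isg15, 0.96 for Ifit3 and 0.61 for Irf9. Ifit2 and Bst2 gave 0.34 each and Stat2 gave -0.09. For 7 of the 9 genes, all but Stat2 and Bst2, this was farther from WT-vehicle than R6/1-vehicle was. Usp18 is among these 7, and Isg15 hardly differed (1.04, against 1.00 for R6/1-vehicle). The same share over all genes was not computed, so nothing is read from this count. This comparison shares R6/1-RGFP109 and WT-vehicle with the comparisons above.

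Of 146 further genes of the interferon pathway, in 10 lists by role, 97 passed the minimum in the vehicle comparison. Among them 21 (21.6%) were higher and 3 (3.09%) lower past the fold in R6/1-vehicle, with a median difference of 0.18, beside 4.49% higher and 11.0% lower of all genes and 6.62% higher of those at 0.5 to 10 FPKM. With RGFP109 the counts were 20 higher (20.6%) and 1 lower of 97, with a median of 0.17, beside 4.06% and 9.58% of all genes and 6.43% higher at 0.5 to 10 FPKM. The counts of the single lists below stand beside these same shares. Of the 21 genes higher with vehicle, 4 (Ifi47, Mx2, Parp14 and Trim30a) were under 0.5 FPKM in WT-vehicle and passed the minimum only through R6/1-vehicle, and of the 20 with RGFP109 1, Parp14, was under it in WT-RGFP109. The higher genes of the vehicle and RGFP109 comparisons had 16 genes in common, 76.2% of the first list and 80.0% of the second, and for all genes these shares were 43.3% and 47.9%. RGFP109 within a genotype gave 1 higher and 3 lower of 100 list genes in R6/1 mice and 0 higher and 1 lower of 93 in wild type mice. These shares are near those of all genes, 1.70% higher and 1.71% lower in R6/1 mice and 1.99% and 2.69% in wild type mice, and nothing is read from them.

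**Figure D4:**
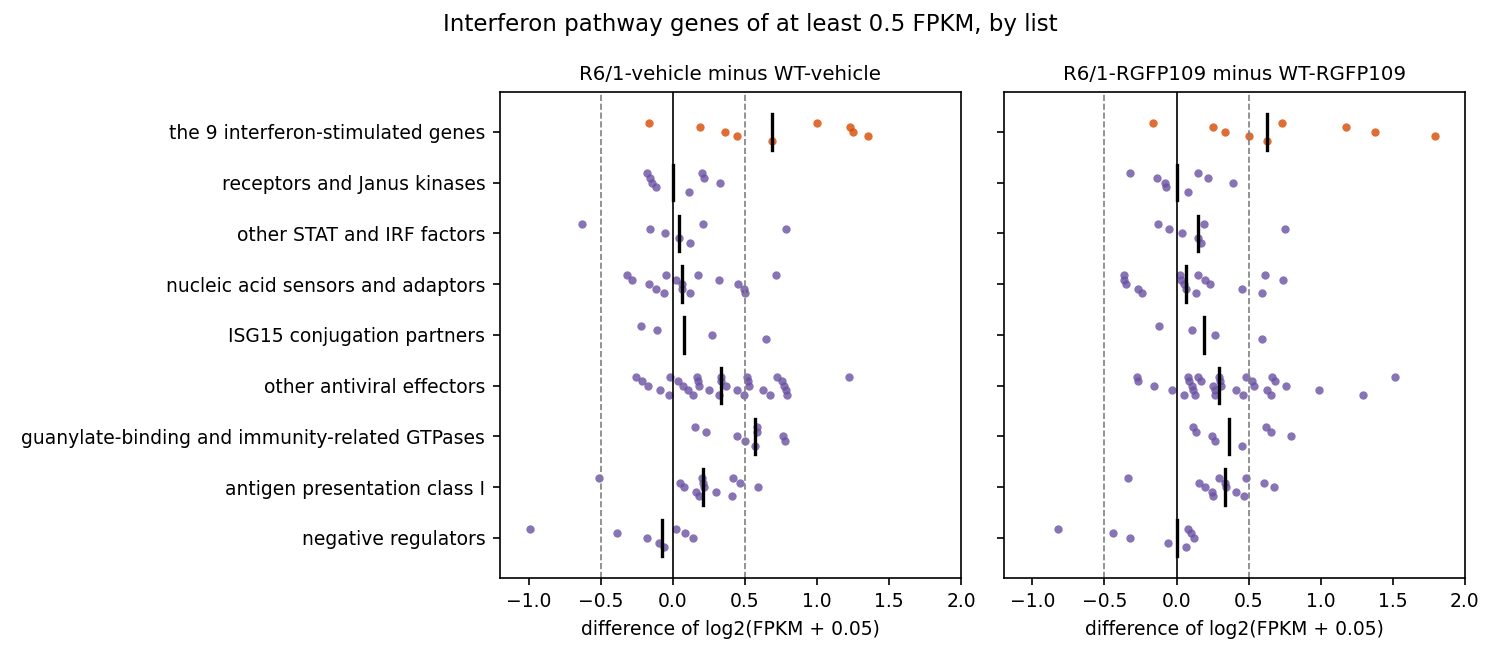
Differences of log2(FPKM + 0.05) between R6/1 and wild type mice with vehicle (left) and with RGFP109 (right) for single genes (points) of at least 0.5 FPKM, by list, with the median of each list as a black bar and dashed lines at 0.5 and -0.5. The ligand and chemokine lists are left out because at most 1 of their genes passed the minimum. The medians of the 9 interferon-stimulated genes (0.69 and 0.63) and of the guanylate-binding and immunity-related GTPases (0.57 and 0.36) lie highest, and those of receptors and Janus kinases lie at 0.

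At the head of the pathway, 10 of the 15 interferon ligand genes were listed at 0 in all 4 groups, Ifnb1 among them, and the highest value of the other 5 was 0.0488 FPKM, for Ifna2 in WT-vehicle. The receptors and Janus kinases were expressed, with 7.41 FPKM for Ifnar1 and 14.9 FPKM for Ifnar2 in WT-vehicle. None of the 8 that passed the minimum was past the fold in any of the 4 comparisons. Of the other STAT and IRF factors, 7 passed the minimum. By genotype 1 was higher and 1 lower past the fold with vehicle, and 1 was higher and 0 lower with RGFP109. The lower one was Irf8, a factor of microglia and other myeloid cells, at 2.37 FPKM in R6/1-vehicle against 3.70 FPKM (-0.63). Irf8 gave -0.13 with RGFP109.

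Of the nucleic acid sensors and adaptors, 2 of 16 were higher past the fold with vehicle, Ddx58 (0.72), which encodes the RNA sensor RIG-I, and Dhx58 (0.50). With RGFP109 3 of 17 were higher, Eif2ak2 (0.74), which encodes the RNA-activated kinase PKR, Ifih1 (0.62), which encodes the RNA sensor MDA5, and Ddx58 (0.59). Of the 4 listed enzymes that attach ISG15 or related modifiers, Trim25 alone was higher past the fold by genotype, and 0 were lower. It gave 0.64 with vehicle and 0.59 with RGFP109. Uba7, the E1 enzyme for ISG15, gave 0.27 and 0.11, and Herc6 gave -0.22 and -0.12. Ube2l6, the E2 enzyme for ISG15, gave -0.11 and 0.27. It was lower after RGFP109 in wild type mice, at 2.26 FPKM against 3.40 FPKM (-0.57).

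The other antiviral effectors held 11 higher genes of 31 with vehicle and 10 of 31 with RGFP109, and 0 lower. Oasl2, of the oligoadenylate synthetase family, had 0.705 FPKM in WT-vehicle and 1.71 FPKM in R6/1-vehicle (1.22), and 0.816 and 2.42 FPKM with RGFP109 (1.51). Trim30a (0.80), Rtp4 (0.78) and Dtx3l (0.77) followed with vehicle, and Ifi27l2a (1.29), Rtp4 (0.99) and Parp14 (0.76) with RGFP109. Ifitm1, of a family that hinders virus entry, differed by 0.72 with vehicle and by -0.15 with RGFP109, and was lower after RGFP109 in R6/1 mice (-0.56). Of the guanylate-binding and immunity-related GTPases, 5 of 9 were higher with vehicle, led by Gbp3 (0.78), Igtp (0.76), Ifi47 (0.59) and Irgm1 (0.58). With RGFP109 3 of 8 were higher, Igtp (0.80), Gbp2 (0.65) and Irgm1 (0.62).

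In the class I antigen presentation list, H2-D1 was higher past the fold with vehicle (17.0 and 25.7 FPKM, 0.59) and with RGFP109 (0.60). H2-T23, a nonclassical class I gene, was lower with vehicle (-0.51), and H2-Q4 was higher with RGFP109 (0.68). Among the negative regulators, Socs3, an inhibitor of Janus kinases, was lower in R6/1 mice, at 0.597 FPKM against 1.24 FPKM with vehicle (-0.99) and at 0.752 FPKM against 1.37 FPKM with RGFP109 (-0.82). Socs1 was lower after RGFP109 in R6/1 mice (-0.66), where R6/1-RGFP109 is under the minimum. Of the chemokines, at most 3 of 7 passed the minimum in a comparison. In R6/1 mice Ccl5 was higher after RGFP109, at 0.799 FPKM against 0.244 FPKM (1.53). It was under the minimum in R6/1-vehicle, was counted through its R6/1-RGFP109 value, and is not counted with a minimum of 1 FPKM. In the same comparison Ccl12 was lower, at 0.736 FPKM against 1.51 FPKM (-0.99).

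Markers of the cell types that the tissue could hold were read beside these differences. Microglia markers were lower in R6/1 mice for 10 of 10 genes, with sums of 360 FPKM in WT-vehicle and 315 FPKM in R6/1-vehicle (log2 ratio -0.19), and 359 and 309 FPKM with RGFP109 (-0.22). The 9 interferon-stimulated genes summed to 26.6 and 35.2 FPKM with vehicle and 28.3 and 38.6 FPKM with RGFP109. Of 8 lymphocyte markers 7 were under 0.05 FPKM in all 4 groups, and the remaining one, Cd4, was lower in R6/1 mice (28.6 and 7.23 FPKM with vehicle). The T cell genes Cd3e and Cd3d, among the 7, had 0.0291 and 0.0350 FPKM in WT-vehicle. Cd4 is therefore not read as a level of lymphocytes, and its source was not tested. Border macrophage and monocyte markers summed with vehicle to 1.89 and 2.10 FPKM in wild type and R6/1 mice and with RGFP109 to 1.86 and 1.85 FPKM, and neutrophil markers to 2.13, 2.56, 2.81 and 1.78 FPKM in that order. Astrocyte markers (6 of 6) and endothelial and pericyte markers (7 of 7) were lower in R6/1 mice with either treatment. Meninges and fibroblast markers were higher for 4 of 5 genes with vehicle and 3 of 5 with RGFP109 (log2 ratios of sums -0.07 and 0.03). Ependyma markers were lower for 5 of 5 genes with vehicle (-0.30) and higher for 5 of 5 with RGFP109 (0.24). Red blood cell markers were lower with either treatment (-1.12 and -1.54).

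Striatal projection neuron markers identify the tissue and were lower in R6/1 mice for 8 of 8 genes, with sums of 3192 and 1231 FPKM with vehicle. Choroid plexus markers, which a dissection near the ventricle can bring in, summed with vehicle to 1483 FPKM in wild type and 629 FPKM in R6/1 mice and with RGFP109 to 321 and 39.6 FPKM. Oligodendrocyte markers (log2 ratio -0.84 with vehicle, -0.30 with RGFP109) and neocortex markers (-0.86 and -0.39) also differed between genotypes. The part of these cell types in the differences of the interferon-stimulated genes was not tested.

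**Figure D5:**
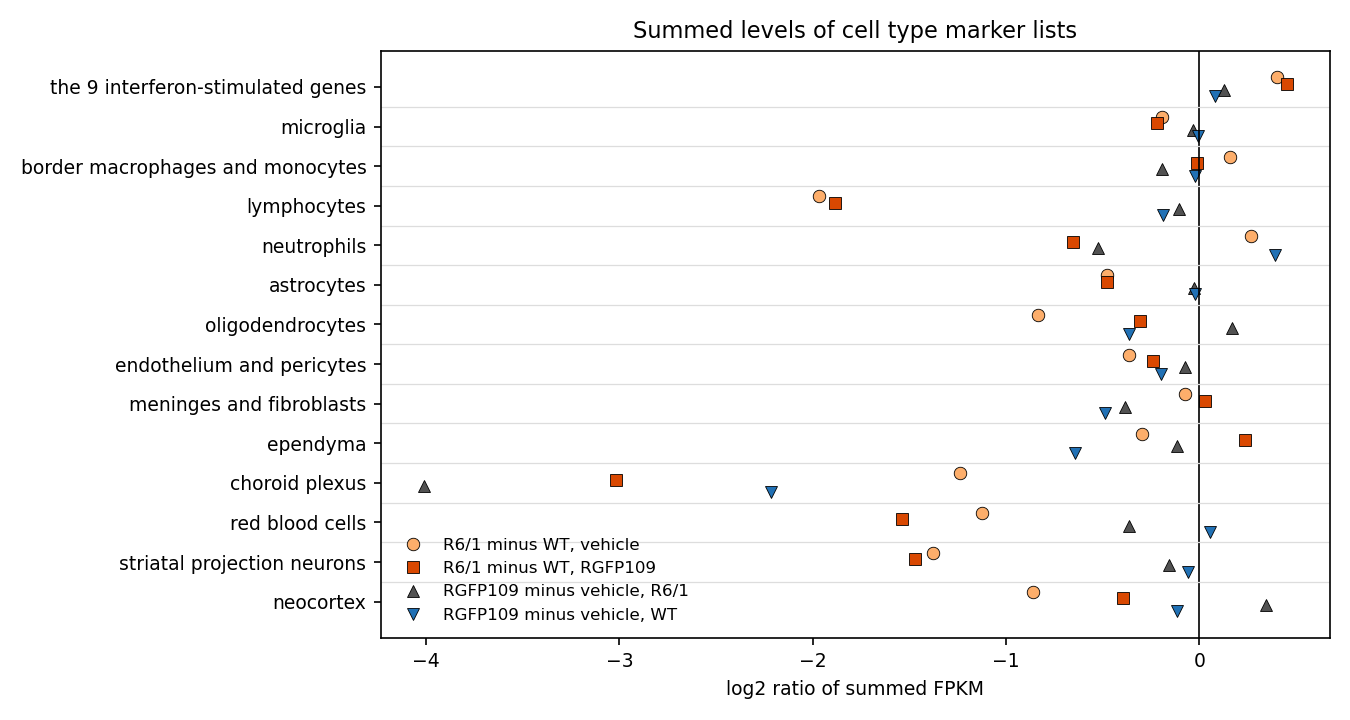
Log2 ratios of the summed FPKM of the 9 interferon-stimulated genes and of 13 marker lists in the 2 genotype comparisons (circles, squares) and the 2 treatment comparisons (triangles). The interferon-stimulated genes lie above 0 in all 4, and their sum holds Usp18, which its RGFP109 levels helped choose. The microglia list lies below 0 by genotype and close to 0 by treatment (-0.03 in R6/1 mice, -0.01 in wild type mice, where 5 genes were above 0 and 5 below). The lymphocyte ratio is that of Cd4 and is not read as a level of lymphocytes.

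The genes most like the set were sought by the distance of their 4 differences (both genotype and both treatment differences) from the median of the 9 genes, which is 0.69, 0.63, 0.15 and 0.11. The 10 nearest were Pcdhb14, Rgs19, Fkbp14, Spata1, Cep164, Abca7, Nfxl1, Cd200, Fahd2a and Ifit3b, with distances from 0.0778 to 0.125. Of these only Ifit3b is on an interferon pathway list. Pcdhb14, a protocadherin gene and the nearest, had 2.37 and 3.69 FPKM with vehicle and 2.65 and 4.08 FPKM with RGFP109 in wild type and R6/1 mice. Cd200, which encodes a membrane ligand for an inhibitory receptor of myeloid cells, had 40.2 and 64.2 FPKM with vehicle. The 9 genes themselves lay from 0.197 (Ifit3) to 1.35 (Usp18) from their median, all farther than the 10 genes named.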

How the data were processed

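Short single reads from striatal RNA were sequenced in pools of libraries, and the labels do not say which library was in which pool. Per the labels and the paper, the authors aligned them with STAR 2.5.0b to mm10 transcripts and computed FPKM with Cufflinks 2.2.1, and Cuffdiff made 1 FPKM value per group in each of 6 deposited tables, 1 for each pair of the 4 groups. The scale of a group shifts from table to table by at most 0.0555 (log2), alike for all genes. The tables also hold the authors' fold changes, test statistics, p-values and q-values, which were not used. Counts were not used here, and low values showed no common step from which depth could be read (at most 4.59% of low genes shared a ratio). Depth and the precision it gives are therefore unknown.

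Levels come from the table of the 2 vehicle groups and that of the 2 RGFP109 groups. Log2 differences used a pseudocount of 0.05 FPKM, with a minimum mean of 0.5 FPKM and a fold of 0.5. The counting was tested on simulated data with planted changes well past the fold and little noise. That checks the arithmetic of the counting and says nothing of the spread between mice. The members, lists and rules were chosen with earlier results of these data known. Named pathway genes are those past the fold, at most 4 per list and comparison by size, with additions named for their role or a contrast chosen after their values were seen. A pathway gene that this rule names is not reported here. The 10 nearest genes have a mean of at least 0.5 FPKM. Promoters are RefSeq windows on GRCm38.p6, the build of mm10. Coordinates are those of the tables with 1 added to the start. Alternatives were another pseudocount, minimum, fold, centring and table. Genes of 0.5 to 10 FPKM as a background and the alternatives for the pathway lists were added after seeing the data. Python 3.11.15, numpy 2.4.6 and pandas 2.3.3 were used.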

Additional observations from a re-analysis of the deposited data

How the results depend on the processing

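No paired analysis was possible because the deposited tables hold 1 pooled value per group. Values per library from other sources were not used here, so no library was left out. Centring, reading both groups from other tables, no pseudocount, and a minimum of 1 FPKM or none kept every count of the 9 genes within 1.5 times its value. Of 180 log2 differences of single genes recomputed, 17 moved by at least 0.1, 15 of them with a pseudocount of 0.5 FPKM, and 0 past the fold changed sign. The 18 recomputed differences of treatment differences, 9 with centring and 9 as the difference of the 2 genotype differences, moved by less than 0.1. The latter form uses the same 4 groups, so its small shift was given in advance. A pseudocount of 0.5 FPKM was not applied to these differences, so their dependence on it was not examined. With it the treatment difference of Isg15 in wild type mice was 0.64 (0.79 before), and that of Usp18 in R6/1 mice 0.44 (0.56 before).

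Counts of the 9 genes moved mainly with the fold. Above 1 they were 3 higher in R6/1-RGFP109 over WT-RGFP109 and 0 after RGFP109 in either genotype. Above 0.25 they were 4 higher after RGFP109 in R6/1 mice, and 2 higher and 1 lower in wild type mice. With a pseudocount of 0.5 FPKM 0 were higher after RGFP109 in R6/1 mice. The share of all genes was not computed at these settings, so whether these counts exceed it cannot be said.

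For the pathway lists, a fold of 0.25 gave 39 higher and 7 lower of 97 genes by genotype with vehicle. With RGFP109 it gave 41 and 12 of 97. By treatment it gave 5 and 11 of 100 in R6/1 mice, and 4 and 10 of 93 in wild type mice. A fold of 1 gave 1 higher with vehicle, 2 with RGFP109, and 0 lower in all 4 comparisons. With no minimum there were 35 higher and 5 lower of 129 genes with vehicle, and 36 higher of 133 with RGFP109. By treatment, 2 were higher and 6 lower of 133 in R6/1 mice, and 2 were lower of 130 in wild type mice. A pseudocount of 0.5 FPKM gave 12 higher with vehicle, 10 higher with RGFP109, 1 lower by treatment in R6/1 mice and 0 lower in wild type mice. A minimum of 1 FPKM left 0 higher by treatment in R6/1 mice. The share of all genes at these other settings was not computed, so these counts stand without a background. Low levels and unknown depth limit these values.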

Other observations

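Interferon pathway genes under the minimum of 0.5 FPKM entered the counts past the fold only where no minimum was used. Those named here were chosen after their values were seen. Ifi204, of a family of DNA sensors, had 0.0829 FPKM in WT-vehicle and 0.259 FPKM in R6/1-vehicle, and 0.0825 and 0.315 FPKM with RGFP109. Ddx60, a helicase gene, had 0.116 and 0.308 FPKM with vehicle and 0.140 and 0.390 FPKM with RGFP109. Oas1a had 0.0994 and 0.308 FPKM with vehicle and 0.138 and 0.242 FPKM with RGFP109. Zbp1, which encodes a sensor of Z-form nucleic acid, had 0.117 and 0.254 FPKM with vehicle and 0.172 and 0.414 FPKM with RGFP109. In each of these 4 genes both R6/1 values lie above both wild type values, and the depth behind these low values is unknown. Other low pathway genes went the other way. Irf4 had 0.129 and 0.0678 FPKM with vehicle and 0.142 and 0.0929 FPKM with RGFP109. Tgtp1 had 0.103 and 0.0490 FPKM with vehicle and 0.0633 and 0.0344 FPKM with RGFP109. With no minimum, 35 pathway genes were higher and 5 lower past the fold with vehicle, against 21 and 3 with it. With RGFP109 the counts were 36 and 1, against 20 and 1. The share of all genes with no minimum was not computed, and the low genes were not counted by themselves.

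The chemokine Ccl2 had 0.836 FPKM in R6/1-vehicle and between 0.0775 and 0.113 FPKM in the other groups, and Cxcl10, a classical interferon-induced chemokine, had 0.150 and 0.624 FPKM with vehicle and 0.176 and 0.439 FPKM with RGFP109 in wild type and R6/1 mice.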
